A study of Heterocephalus glaber with 3 samples.

Results

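RB1, CCND1, CCNE1, CCNE2, E2F1 and E2F2 were followed across the cell types of naked mole-rat (Heterocephalus glaber) lung tumours and between cycling and resting cells. The genes were taken by symbol, and all 6 were found among the 23189 features of the count matrices. Single-cell RNA was counted in tumours from 3 animals, 1 library each, which form 1 group. In all 3 animals the labels list an inversion joining Eml4 and Alk, together with Rb loss, among the induced edits, which also include the loss of a further gene not analysed here, and lungs were taken 15 weeks after infection. No untreated animal was analysed here, so every comparison was between cells of the same animals, and a gene's level was not compared between edited and unedited lungs.

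The RB1 protein is a pocket protein that binds E2F transcription factors and holds back the genes needed for DNA replication. D-type cyclins such as CCND1 activate CDK4 and CDK6, which phosphorylate RB1, and the E-type cyclins CCNE1 and CCNE2 activate CDK2, which carries the phosphorylation on at the start of S phase. E2F1 and E2F2 are activating E2F factors, and the E-type cyclin genes are among the textbook E2F targets.

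The libraries held 76093932, 86575320 and 91949365 unique molecular identifiers (UMIs, 1 per captured RNA molecule) in replicates 1, 2 and 3, of which 24599 cells were kept. Clustering without the members, the other RB pathway genes or the cell cycle definition genes gave 27 clusters. Of these, 5 clusters with 2708 cells stayed unnamed, and they held 21.6% of the cells of replicate 3 against 6.63% and 5.66% of those of replicates 1 and 2. Each cell type name rested on at least 3 markers detected in at least 10% of the cells, and the NK-like, mesothelial-like and osteoclast-like names rested on exactly 3. The names were joined into lineage classes, of which 9 had at least 20 cells in every animal. The class plotted as fibroblast or mural held only fibroblast-like clusters, since no cluster was named mural-like. Levels are UMIs per 1000000 UMIs (CPM) in the sum over a class's cells in 1 animal. Counts at the 3′ end depend on the transcript's end, so levels were compared between cells and not between genes.

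RB1, the gene named in the edits, was detected in every animal, with 1062, 1525 and 853 UMIs in replicates 1, 2 and 3, or 15.5, 18.9 and 10.8 CPM over all kept cells. A 3′ count does not show whether a copy of the gene was edited, so these values do not check the labels. In Alk-high fibroblast-like cells, defined below, RB1 stood at 7.90, 10.99 and 9.61 CPM, against 11.6, 17.3 and 10.2 CPM in the other fibroblast-like cells.

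By CPM, RB1 was low in the fibroblast-like, epithelial-like, plasma-like and neutrophil-like classes and high in T or NK-like, B-like and dendritic-like cells. Plasma-like cells averaged 8.78 ± 2.89 CPM and neutrophil-like cells 11.5 ± 1.22 CPM (SD, n = 3 each). The scaling of plasma-like cells is treated separately below. The fibroblast-like class had 8.39, 12.3 and 9.74 CPM in replicates 1, 2 and 3, and the epithelial-like class had 9.61, 11.4 and 11.1 CPM. T or NK-like cells had 29.7, 33.1 and 25.9 CPM, above both of those classes in every animal. Dendritic-like cells had 28.1, 31.0 and 21.1 CPM, a range that overlaps that of T or NK-like cells. Endothelial-like cells, with 37 RB1 UMIs in all, had 24.6, 38.0 and 12.6 CPM, a range that overlaps those of both these classes. Against the mean of the other lineages RB1 was lower in fibroblast-like cells by a log2 fold change of −1.10 (SE 0.14, edgeR quasi-likelihood adjusted p = 3.9e-07) and in epithelial-like cells by −0.97 (SE 0.19, edgeR adjusted p = 0.00015). It was higher in T or NK-like cells by 0.63 (SE 0.13, edgeR adjusted p = 0.00025). In endothelial-like cells RB1 was at 0.21 and not called (edgeR adjusted p = 0.56), but passed with library totals, at 0.74 (edgeR adjusted p = 0.029). The higher calls in dendritic-like cells (log2 fold change 0.53) and B-like cells (0.67) were lost without replicate 1, at edgeR adjusted p = 0.053 and 0.18, and without replicate 2, at 0.055 and 0.16. The 3 RB1 UMIs of B-like cells in replicate 3 came from 67 cells.

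CCND1 had the widest range across lineages among the 4 members with enough counts to test. Mean levels were 180 ± 110 CPM in endothelial-like, 159 ± 38.7 CPM in fibroblast-like and 103 ± 42.3 CPM in epithelial-like cells (SD, n = 3 each). They were 23.8 ± 12.5 CPM in dendritic-like and 23.2 ± 11.6 CPM in macrophage-like cells, 7.61 ± 2.45 CPM in T or NK-like cells, 7.36 ± 2.62 CPM in neutrophil-like cells, 5.64 ± 5.70 CPM in B-like cells and 1.53 ± 0.825 CPM in plasma-like cells (SD, n = 3 each). The first 3 classes overlapped one another, and each lay above the other 6 classes in every animal. CCND1 was higher in fibroblast-like cells by a log2 fold change of 2.97 (SE 0.19, edgeR adjusted p = 5.5e-13), in endothelial-like cells by 2.92 (SE 0.27, edgeR adjusted p = 2.8e-09) and in epithelial-like cells by 2.17 (SE 0.22, edgeR adjusted p = 6.8e-09). It was lower in T or NK-like cells by a log2 fold change of −1.96, in plasma-like cells by −2.63, in B-like cells by −1.95 and in neutrophil-like cells by −1.49. The last pair of calls was lost without replicate 1, at edgeR adjusted p = 0.054 in B-like and 0.088 in neutrophil-like cells.

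At an equal depth of 1500 UMIs per cell, 12.1% of fibroblast-like cells had a CCND1 UMI (exact binomial 95% interval 10.9 to 13.3%), against 0.378% of plasma-like cells (0.173 to 0.716%). Unthinned, these shares were 42.0% and 1.76%, at median depths of 10062 and 14199 UMIs. Intervals on counts cover counting error only. Pooled over animals, T or NK-like cells had 5.16% of the CCND1 level of fibroblast-like cells and 1.08% of the level of COL1A1, a collagen gene that T cells are not known to make. Plasma-like cells had 0.804% of the CCND1 level, against 0.679% for COL1A1 and 0.910% for COL3A1, so their CCND1 share was near those of these collagen genes. Whether free RNA adds to the low CCND1 levels of any class was not tested.

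**Figure D1:**
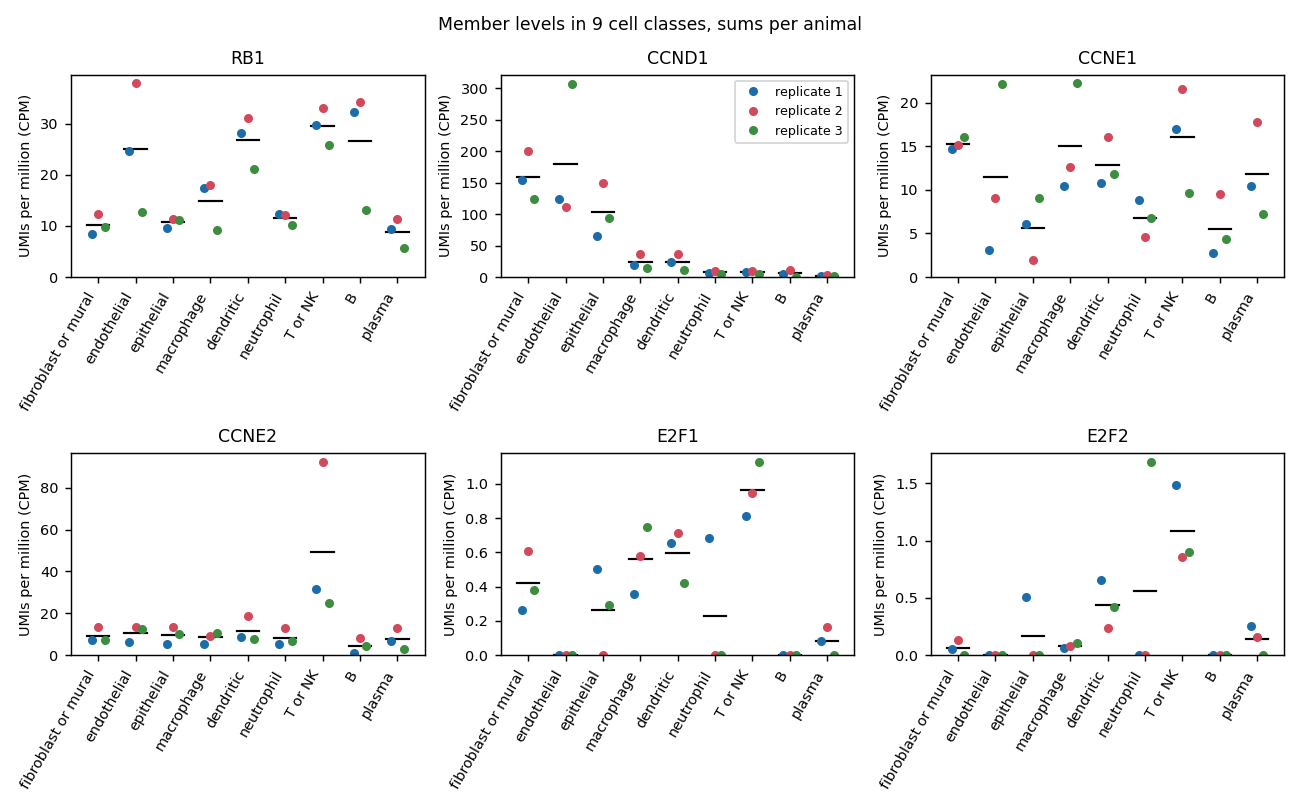
Level of each member (CPM) in 9 lineage classes. Points are the 3 animals and black bars their means, and each panel has its own axis. CCND1 stands high in the fibroblast or mural, endothelial and epithelial classes, and CCNE2 in the T or NK class, at 92.0 CPM in replicate 2.

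The E-type cyclins differed in where they were found. CCNE2 had 31.5, 92.0 and 24.7 CPM in T or NK-like cells in replicates 1, 2 and 3, against 7.33, 13.4 and 7.36 CPM in fibroblast-like cells and 5.56, 9.23 and 10.8 CPM in macrophage-like cells. All 3 T or NK-like values lay above those of the other 8 classes, and CCNE2 was higher in these cells by a log2 fold change of 2.15 (SE 0.20, edgeR adjusted p = 1.7e-09). CCNE1 was spread more evenly, with mean levels of 16.1 ± 5.99 CPM in T or NK-like, 15.3 ± 0.709 CPM in fibroblast-like and 15.1 ± 6.27 CPM in macrophage-like cells (SD, n = 3 each), which overlapped. CCNE1 was called lower in epithelial-like cells, by a log2 fold change of −1.09 (SE 0.37, edgeR adjusted p = 0.016). That call was lost without replicate 1 or 2 and with library totals in place of TMM scaling, at edgeR adjusted p = 0.056, 0.14 and 0.11. CCNE2 was called lower in B-like cells, by −1.58 (SE 0.49, edgeR adjusted p = 0.015), a call lost without replicate 1 or 2, at 0.14 and 0.054.

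Within the T or NK-like class CCNE2 was highest in cluster 14, which is led by EOMES and PRF1 with TOP2A and CENPF, and of whose cells 75.4% were cycling. It stood there at 63.7, 167 and 63.0 CPM. The cluster led by GZMA and GZMK had 17.7, 42.0 and 13.3 CPM, the one led by FOXP3 and IL2RA, genes of regulatory T cells, had 12.7, 30.9 and 17.3 CPM, and the one led by CD40LG and IL7R had 9.11, 13.6 and 10.1 CPM. Replicate 2 was the highest of the 3 animals in each of these clusters.

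The count of CCNE2 UMIs per CCNE1 UMI gave the same contrast without reference to library totals. It was 1.85, 4.27 and 2.56 in T or NK-like cells, with exact binomial 95% intervals that all lay above 1. In fibroblast-like cells it was 0.498, 0.883 and 0.457, in macrophage-like cells 0.531, 0.733 and 0.484, and in plasma-like cells 0.648, 0.734 and 0.387. None of these 9 values reached the lowest T or NK-like value. Ratios above 1 were found elsewhere too, among them 1.16 in dendritic-like cells (79 CCNE2 and 68 CCNE1 UMIs) and 2.26 in osteoclast-like cells (88 and 39 UMIs), both of replicate 2, and in endothelial-like, epithelial-like, neutrophil-like and mesothelial-like cells of 1 or 2 animals on fewer UMIs. Among cycling cells alone the ratio was 1.44, 4.07 and 2.36 in T or NK-like cells, against 0.408, 0.855 and 0.303 in fibroblast-like cells and 0.581, 0.836 and 0.50 in macrophage-like cells. The ratio compares cell classes, since the capture of the 2 transcripts differs by an unknown factor.

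**Figure D2:**
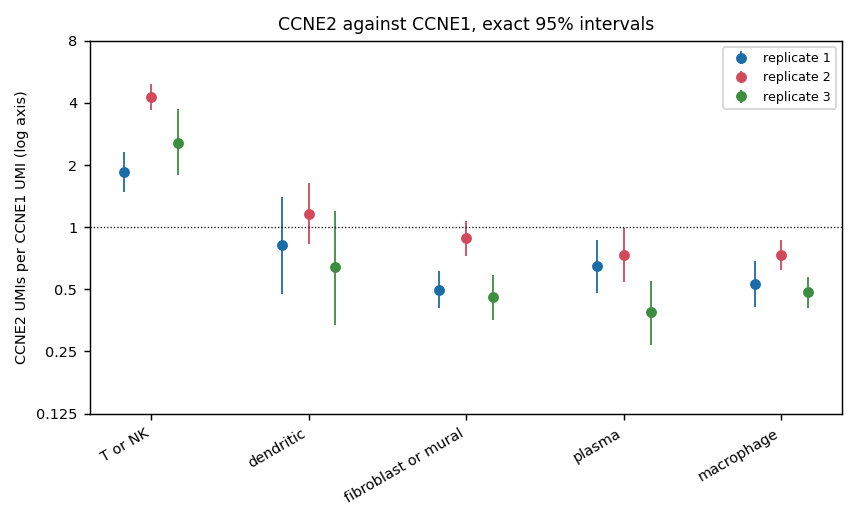
CCNE2 UMIs per CCNE1 UMI (log axis) in 5 lineage classes. Points are the 3 animals, bars exact binomial 95% intervals, and the dotted line marks equal counts. T or NK cells lie at 1.85 to 4.27, and fibroblast or mural, plasma and macrophage cells below 1.

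Plasma-like cells need their own reading, because 10 features took 70.8% of their UMIs, against 11.6 to 26.9% in the other 8 classes. With TMM scaling, which sets the bulk of genes level between libraries, RB1, CCNE1 and CCNE2 were called higher there, by log2 fold changes of 0.69, 1.84 and 1.13. With library totals the median of all genes was at −1.78, RB1 was at −1.08 and CCNE2 at −0.60, so both changed direction, and CCNE1 was at 0.11 (edgeR adjusted p = 0.78). All 3 stood above the median gene. A change of scaling moves all genes by nearly the same amount, so it could hardly alter that place. The CCNE2 call with TMM was also lost without replicate 1 (edgeR adjusted p = 0.068). CCND1 was lower under both, at −2.63 with TMM and −4.39 with library totals.

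Read against all 12913 genes, the members were not called unusually often across lineages. In T or NK-like cells 3 of the 4 tested members were called, where 48.9% of all genes were called, and in plasma-like cells 4 of 4 (44.9%). In epithelial-like and B-like cells 3 of 4 were called (49.3% and 32.0% of all genes), and in fibroblast-like cells 2 of 4 (55.3%). In dendritic-like, endothelial-like and neutrophil-like cells 1 of 4 was called (37.3%, 32.2% and 38.6%), and in macrophage-like cells 0 of 4 (45.4%). In that last class 1 member, CCNE1, had an unadjusted p under 0.05 with edgeR, at 0.036, and DESeq2 called 1, RB1, at a log2 fold change of −0.37 (adjusted p = 0.020). The lineage classes were drawn from the same cells, so these p-values are not calibrated, although the members took no part in the clustering.

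E2F1 and E2F2 were scarce, with 105 and 48 UMIs in all kept cells, and did not pass the count filter of the lineage comparison. E2F1 stood at 0.938 CPM in T or NK-like cells (21 UMIs, exact Poisson 95% interval 0.581 to 1.43), 0.571 CPM in macrophage-like cells (35 UMIs, 0.398 to 0.794) and 0.407 CPM in fibroblast-like cells (19 UMIs, 0.245 to 0.635). It stood at 0.0585 CPM in plasma-like cells (2 UMIs, 0.00709 to 0.211). E2F2 stood at 1.07 CPM in T or NK-like cells (24 UMIs, 0.687 to 1.59), against 0.0642 CPM in fibroblast-like (3 UMIs, 0.0132 to 0.188) and 0.0816 CPM in macrophage-like cells (5 UMIs, 0.0265 to 0.190). Of the 24 E2F2 UMIs in T or NK-like cells, 20 were in cluster 14. B-like and endothelial-like cells had 0 UMIs of either gene.

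By likeness of log2(CPM + 1) over the 27 sums of animal and lineage, CCND1 was most like SMOX, PHLDA2 and LRRC42 (Pearson r = 0.97, 0.95 and 0.95). RB1 was most like GIT2, RNF19A and LUC7L3 (0.88, 0.86 and 0.86). CCNE1 was most like ZWILCH, RRM2 and PKMYT1 (0.77, 0.74 and 0.74), and CCNE2 was most like BRCA1, CD3G and FOXP3 (0.77, 0.76 and 0.76). For the scarce pair the nearest genes were DCK, CENPL and HMMR for E2F1 (0.81, 0.79 and 0.79) and CDCA5, OIP5 and TMIGD2 for E2F2 (0.74, 0.74 and 0.73). Sums of 1 animal share a library, and those of 1 lineage share a cell type.

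The members were next compared between cycling and resting cells. Each cell was thinned to 1500 UMIs, which left out 1598 shallower cells. A cell was called cycling with at least 3 UMIs from at least 2 genes of a G2/M list (23 of 35 genes measured), and resting with 0 UMIs of that list and of an S list (26 of 34 measured). No member is on either list. This gave 1825 cycling and 8612 resting cells, and 12564 between them that entered neither state. The share of cycling cells was 12.6 ± 3.65% in T or NK-like, 8.76 ± 2.69% in dendritic-like, 7.12 ± 1.46% in fibroblast-like, 6.59 ± 4.09% in plasma-like and 5.32 ± 2.51% in macrophage-like cells (SD, n = 3 each). In T or NK-like cells the exact binomial 95% intervals were 10.8 to 13.95% in replicate 1, 14.8 to 18.03% in replicate 2 and 7.47 to 10.9% in replicate 3. Over the 27 sums the level of CCNE1 ran with the share of cycling cells at a Pearson r of 0.72 and that of CCNE2 at 0.70, against 0.15 for RB1 and −0.04 for CCND1. The scarce E2F1 and E2F2 were at 0.68 and 0.62. By Spearman rank CCNE1 was at 0.79 and CCNE2 at 0.55.

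With 1251 cells of each state matched on animal and cluster, both E-type cyclins were higher in cycling cells. The match drew equal numbers of both states from each cluster of an animal. Cluster 14 had 571 cycling and 3 resting cells, so nearly all of its cycling cells were left out. CCNE2 had 13.3, 33.3 and 14.2 CPM in cycling cells, against 2.48, 5.61 and 5.73 CPM in resting cells. CCNE1 had 22.4, 31.3 and 29.7 CPM in cycling cells, against 8.47, 8.33 and 12.2 CPM in resting cells. The states did not overlap for either gene, and the share of all genes without overlap was not counted. CCNE2 was higher by a log2 fold change of 1.91 (SE 0.24, edgeR adjusted p = 0.00055) and CCNE1 by 1.35 (SE 0.15, edgeR adjusted p = 0.00029).

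CCND1 had 92.3, 109 and 31.5 CPM in cycling cells, against 50.8, 71.6 and 22.6 CPM in resting cells, higher in each animal while the ranges overlapped. Its log2 fold change of 0.48 (SE 0.09, edgeR adjusted p = 0.0050) was not held when cells were also matched on UMI total, where it was −0.02 (SE 0.10, edgeR adjusted p = 0.90). Median UMIs per cell in the cluster-matched sums were 16638 to 19964 in cycling cells and 9784 to 13940 in resting cells. After matching on UMI total CCNE2 was at 2.05 and CCNE1 at 1.24, both still called (edgeR adjusted p = 6.9e-05 and 0.00025). The CCND1 call was also lost at a mitochondrial limit of 10% (edgeR adjusted p = 0.13) with at least 5 list UMIs for a cycling cell (0.66), and against all resting cells, unmatched (0.052).

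RB1 had 15.4, 19.5 and 16.2 CPM in cycling cells, against 12.8, 13.6 and 8.77 CPM in resting cells. The states did not overlap, but the share of all genes without overlap was not counted. The log2 fold change of 0.37 (SE 0.15) missed the threshold (edgeR adjusted p = 0.10). RB1 passed without replicate 1 (0.50, edgeR adjusted p = 0.044) and with library totals (0.55, edgeR adjusted p = 0.022), a scaling under which the median of all genes moved by 0.18. It also passed against all resting cells, unmatched (0.39, edgeR adjusted p = 0.039). In all, 3 of the 4 tested members were called, where 26.8% of 11444 genes were called.

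E2F1 and E2F2 did not pass the count filter of the matched comparison. E2F1 had 16 UMIs in cycling and 3 in resting matched cells, a ratio of CPM of 3.47 with an exact 95% counting interval of 0.994 to 18.6. E2F2 had 10 UMIs in cycling and 0 in resting matched cells. Its cycling level was 2.17-fold a floor of 3 counts over the resting group. The exact 95% counting interval of the ratio of cycling to resting cells begins lower, at 1.46. Without the filter neither was called (E2F1 at edgeR adjusted p = 0.43, E2F2 at 0.19), and neither had an unadjusted p under 0.05. Over all cycling and all resting cells, unmatched, E2F2 had 10, 11 and 6 UMIs in cycling cells, against 1, 1 and 2 UMIs in resting cells of replicates 1, 2 and 3. E2F1 had 5, 7 and 11 UMIs in cycling cells, against 1, 6 and 2 UMIs in resting cells. E2F2 was called in this unmatched comparison, at a log2 fold change of 3.52 (SE 0.50, edgeR adjusted p = 0.0061). These unmatched counts also reflect which lineages cycle.

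Among the other RB pathway genes, 24 of 30 were measured and 22 tested, of which 13 rose and 1 fell in cycling cells. Their median log2 fold change was 0.44, beside −0.02 for all genes tested. E2F8 and E2F7, repressive E2F factors, rose by log2 fold changes of 5.14 (SE 0.25, edgeR adjusted p = 9.9e-07) and 4.28 (SE 0.64, edgeR adjusted p = 0.0014). E2F8 averaged 22.7 CPM in cycling and 0.540 CPM in resting cells. CCNF, an F-box protein that marks partners for destruction, rose by 4.92, CDKN2C, an inhibitor of CDK4 and CDK6, by 2.15, and CKS1B, a CDK-binding subunit, by 2.14. CDK2, the partner of the E-type cyclins, rose by 1.56.

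The pocket proteins RBL1 and RBL2 rose by 1.53 (SE 0.14, edgeR adjusted p = 6.0e-05) and 0.54 (SE 0.13, edgeR adjusted p = 0.016). CDK4, the D cyclin partner, rose by 0.45 and E2F4, a repressive E2F factor, by 0.47. Cycling cells were deeper in these sums, and pathway values after matching on UMI total are not given here. The CCND1 rise of 0.48, similar in size to those of RBL2, CDK4 and E2F4, was not held under that match. Of the other D cyclins, CCND2 was at −0.11 and CCND3 at −0.10, and neither passed (edgeR adjusted p = 0.57 and 0.32). CDKN1A, which encodes the CDK inhibitor p21, was the gene that fell, by a log2 fold change of −0.50 (SE 0.09, edgeR adjusted p = 0.0030), with 123 ± 36.2 CPM in cycling and 153 ± 39.5 CPM in resting cells (SD, n = 3 each).

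Within lineages, CCNE1 and CCNE2 were higher in cycling cells of the T or NK-like, dendritic-like, fibroblast-like and macrophage-like classes. In T or NK-like cells CCNE2 had 53.3, 160 and 55.7 CPM in cycling cells, against 10.3, 13.1 and 5.33 CPM in resting cells, a log2 fold change of 3.104 (SE 0.34, edgeR adjusted p = 7.1e-08). CCNE1 had 37.0, 39.2 and 23.6 CPM there in cycling cells, against 3.68, 3.93 and 2.66 CPM in resting cells, a change of 3.19 (SE 0.29, edgeR adjusted p = 2.8e-09). Cluster 14 held 571 of the 657 cycling T or NK-like cells and 3 of the 1323 resting ones, so state and cluster nearly coincide in this class. With 89 cells of each state matched on cluster, CCNE2 was still called, at 4.15 (edgeR adjusted p = 0.0016), and CCNE1 was at 1.77 and not called (edgeR adjusted p = 0.59).

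In macrophage-like cells CCNE1 had 21.5, 32.7 and 29.5 CPM in cycling cells, against 8.26, 7.91 and 13.2 CPM in resting cells. The log2 fold changes in this class were 1.28 for CCNE1 (SE 0.18, edgeR adjusted p = 4.4e-06) and 1.97 for CCNE2 (SE 0.35, edgeR adjusted p = 0.00011). In dendritic-like cells they were 2.56 for CCNE1 and 3.05 for CCNE2. CCNE2 was not higher there in replicate 3, with 1 UMI in cycling and 4 UMIs in resting cells, and its call was lost without replicate 2 (edgeR adjusted p = 0.11). In fibroblast-like cells CCNE1 was higher by 1.73 (SE 0.18, edgeR adjusted p = 4.6e-08) and CCNE2 by 1.26 (SE 0.34, edgeR adjusted p = 0.0064), the CCNE2 call again being lost without replicate 2 (0.31), and with cells matched on cluster (0.082). In plasma-like cells neither passed with TMM, at 0.62 and 1.24 (edgeR adjusted p = 0.071 and 0.086). Both passed there with library totals, at 1.86 and 2.46, a scaling that moved the median of all genes in this class by 1.22. Both also passed with thinning to 3000 UMIs (edgeR adjusted p = 0.0071 and 0.00035).

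CCND1 was higher in cycling fibroblast-like cells. It had 225, 375 and 126 CPM in cycling cells, against 115, 135 and 70.6 CPM in resting cells, a log2 fold change of 0.86 (SE 0.17, edgeR adjusted p = 0.00031). Alk-high cluster 3 held 209 of the 217 cycling and 530 of the 1179 resting cells of this class. Inside that cluster CCND1 had 227, 375 and 128 CPM in cycling cells, against 128, 167 and 77.9 CPM in resting cells. With cells matched on cluster the change was 0.50 (SE 0.16, edgeR adjusted p = 0.033). The matched cells still differed in depth, with median UMIs of 24690 to 27747 in cycling and 14083 to 21110 in resting cells. Cells were not matched on UMI total within this class, a match under which the CCND1 call over all lineages was not held. In macrophage-like cells CCND1 had 8.31, 27.3 and 9.16 CPM in cycling cells, against 17.4, 32.7 and 13.2 CPM in resting cells, lower in each animal. That log2 fold change of −0.76 (SE 0.25, edgeR adjusted p = 0.024) was lost without each of the 3 replicates in turn, at edgeR adjusted p = 0.24, 0.072 and 0.083.

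RB1 was not called in any of the 5 classes, with log2 fold changes from −0.30 in fibroblast-like to 0.32 in T or NK-like cells. None had an unadjusted p under 0.05, and DESeq2 called 0 of the 5. With library totals it passed in plasma-like cells, at 1.04 (edgeR adjusted p = 0.012). Of 4 tested members, 3 were called in fibroblast-like cells (29.6% of 10807 genes called) and in macrophage-like cells (26.2%). In T or NK-like and dendritic-like cells 2 were called (32.0% and 14.6%), and in plasma-like cells 0 (16.2%), where 2 members, CCNE1 and CCNE2, had an unadjusted p under 0.05 with edgeR and DESeq2 called 0. The higher level of CCND1 in fibroblast-like cells was also present in resting cells, with 115, 135 and 70.6 CPM there, against 8.83, 8.52 and 7.99 CPM in resting T or NK-like cells.

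**Figure D3:**
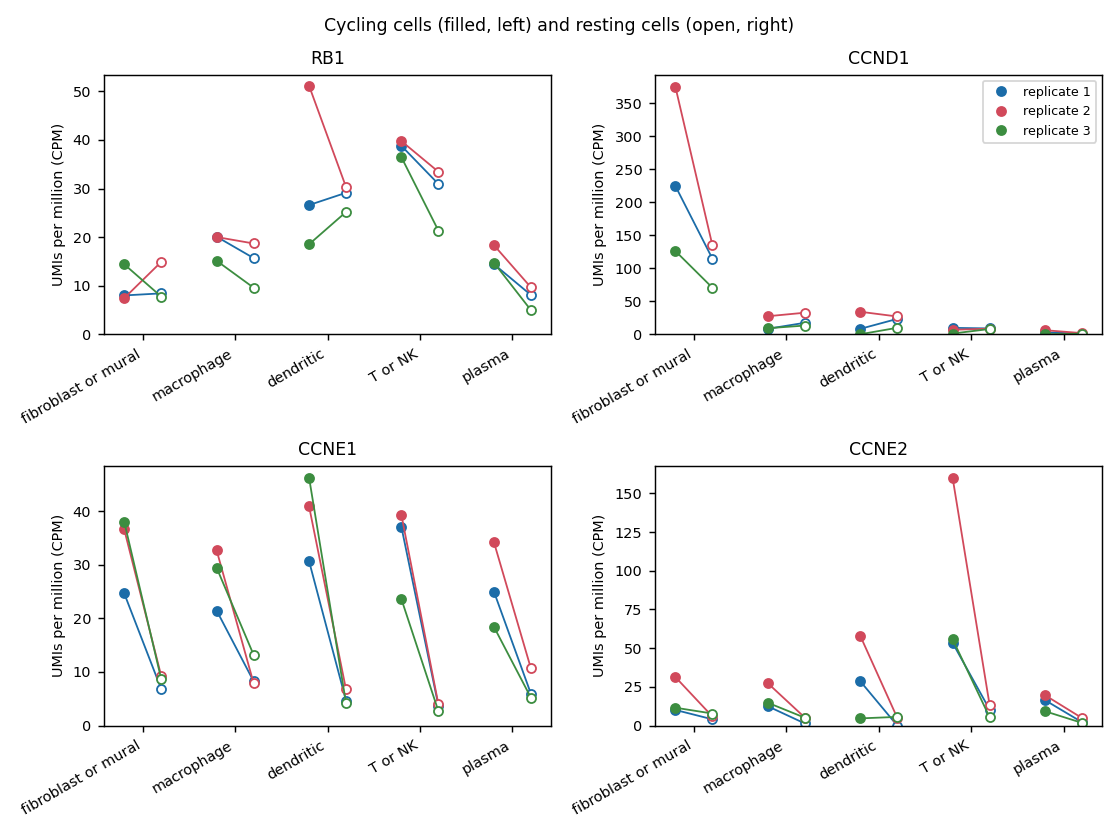
CPM of 4 members in cycling (filled, left) and resting cells (open, right) of 5 lineage classes. Lines join the states of 1 animal. CCNE1 falls to the right in every animal and class, and CCND1 is high in both states of the fibroblast or mural class, at 126 to 375 CPM in cycling cells.

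The difference in the cycling effect between classes was tested for 3 pairs of classes and 4 members. The CCND1 effect was larger in fibroblast-like than in macrophage-like cells by 1.62 on the log2 scale (SE 0.30, edgeR adjusted p = 0.0014). The CCNE1 effect was larger in T or NK-like than in macrophage-like cells by 1.91 (SE 0.37, edgeR adjusted p = 0.0015). Against T or NK-like cells, fibroblast-like cells had a smaller effect for CCNE1, by −1.46 (SE 0.38, edgeR adjusted p = 0.015), and for CCNE2, by −1.84 (SE 0.50, edgeR adjusted p = 0.022). These make 1 of 4, 1 of 4 and 2 of 4 members, where 4.79%, 8.86% and 8.15% of genes were called. The CCNE1 call against macrophage-like cells was lost without replicate 1 (edgeR adjusted p = 0.094). Between fibroblast-like and T or NK-like cells the CCNE1 call was lost without each of replicates 1, 2 and 3 (0.22, 0.20 and 0.057), and the CCNE2 call without replicate 2 or 3 (0.17 and 0.16). DESeq2 called neither of this pair (adjusted p = 0.075 and 0.104). With cells matched on cluster none of the 4 was called, at edgeR adjusted p = 0.12 for CCND1, 0.96 for CCNE1 against macrophage-like cells, and 0.99 and 0.28 for CCNE1 and CCNE2 of fibroblast-like against T or NK-like cells. All 4 had an unadjusted p under 0.05 before matching, and 2 of them, CCND1 and CCNE2, after it.

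Placed within the cycle, the E-type cyclins were higher in S-led than in G2/M-led cells, which are thinned cells with at least 3 UMIs of the definition lists and more from the S or from the G2/M list. CCNE2 had 32.5, 66.5 and 28.0 CPM in the 2690 S-led cells, against 15.6, 41.9 and 10.96 CPM in the 1682 G2/M-led cells. It was higher in each animal, by a log2 fold change of 0.97 (SE 0.13, edgeR adjusted p = 0.0030). CCNE1 had 29.0, 30.1 and 35.8 CPM in S-led cells, against 20.5, 26.2 and 25.5 CPM in G2/M-led cells, a change of 0.39 (SE 0.09, edgeR adjusted p = 0.035). With cells matched on cluster the changes were 1.44 and 0.62, and both were called. With thinning to 3000 UMIs they were 0.35 and 0.06, and neither was (edgeR adjusted p = 0.11 and 0.74). CCNE1 was also lost without replicate 1 or 3, at 0.19 and 0.11.

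E2F1 passed the count filter in this comparison, with 13, 14 and 14 UMIs in S-led cells, against 3, 8 and 7 UMIs in G2/M-led cells. Its log2 fold change of 0.93 (SE 0.41) did not pass (edgeR adjusted p = 0.19). RB1 was at −0.22 and CCND1 at 0.14, and neither passed (edgeR adjusted p = 0.28 and 0.52). Of 5 tested members 2 were called, where 11.2% of 12339 genes were called. Among the other RB pathway genes 3 were higher and 8 lower in S-led cells. CCND3 (0.31), CDKN1A (0.45) and CDC25A (0.92), the phosphatase that activates CDK2, were higher, CDC25A being named after its value was seen, while CCNF (−2.76), CDKN2C (−1.76) and CKS1B (−1.08) were lowest, beside a median of 0.02 for all genes.

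**Figure D4:**
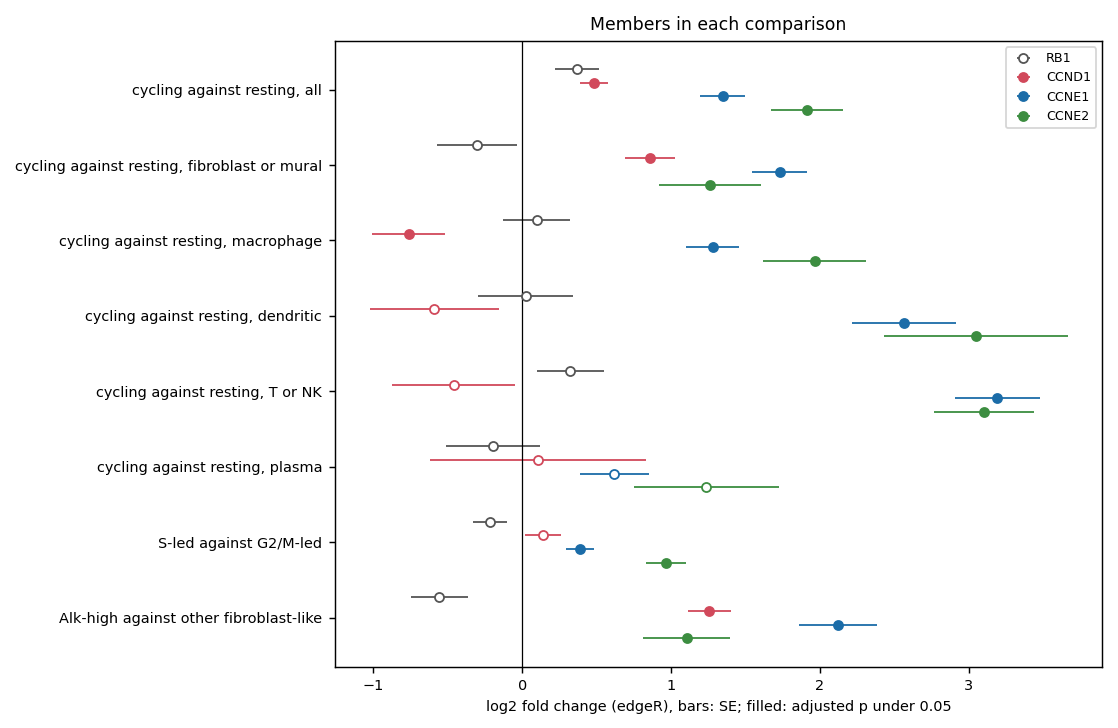
Log2 fold changes (edgeR, with SE) of 4 members in 8 comparisons. Filled points have an adjusted p under 0.05. CCNE1 and CCNE2 are filled in every comparison except the plasma class, and RB1 is open in all.

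Fibroblast-like cells were last split by Alk, since Alk marks cells that may carry the inversion. Alk stood at 19.7 CPM in cluster 3, called Alk-high, and at 1.72 CPM in the other fibroblast-like cluster. Native and fused Alk transcripts are not told apart by these counts, and cluster 3 also held bone-matrix-like cells at a finer clustering. CCND1 had 167, 233 and 139 CPM in Alk-high cells, against 73.7, 72.7 and 59.4 CPM in other cells, and CCNE1 had 16.5, 18.3 and 18.7 CPM, against 3.20, 2.67 and 5.68 CPM. CCNE2 had 7.72, 15.7 and 8.17 CPM in Alk-high cells, against 4.81, 4.33 and 4.16 CPM in other cells. None of the 3 overlapped between the clusters, and the share of all genes without overlap was not counted.

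CCNE1 was higher in Alk-high cells by a log2 fold change of 2.12 (SE 0.26, edgeR adjusted p = 0.0011), CCND1 by 1.26 (SE 0.14, edgeR adjusted p = 0.00075) and CCNE2 by 1.10 (SE 0.29, edgeR adjusted p = 0.024). RB1 was at −0.56 (SE 0.19) and did not pass (edgeR adjusted p = 0.058). It passed without the bone-matrix-like cells, at −0.54 (edgeR adjusted p = 0.044), with at least 2000 UMIs per cell (0.049) and with no doublet removal (0.032), and the CCNE2 call was lost without replicate 2 or 3 (0.11 and 0.052). E2F1 had 5, 9 and 5 UMIs in Alk-high cells and 0 in the other cells of every animal, whose totals were smaller. The exact 95% counting interval of that ratio begins at 0.984, so a difference was not detectable at this depth. In all, 3 of 4 tested members were called, where 39.3% of 11974 genes were called.

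The 2 clusters differed in depth and in cycling. Median UMIs per cell were 15591 to 20418 in Alk-high and 4916 to 5702 in other cells, and 11.6% and 0.654% of their cells were cycling. In resting cells alone CCND1 stayed higher in Alk-high cells, at 128, 167 and 77.9 CPM against 71.2, 75.2 and 56.3 CPM (log2 fold change 0.72, SE 0.16, edgeR adjusted p = 0.011), and CCNE1 at 1.93 (SE 0.38, edgeR adjusted p = 0.0055). CCNE2 had 4.84, 7.104 and 9.25 CPM in resting Alk-high cells, against 1.47, 3.52 and 4.87 CPM in resting other cells. It was higher in each animal, but the ranges overlapped and the change of 1.00 did not pass (edgeR adjusted p = 0.086). With 651 cells of each cluster matched on UMI total, none of the 3 was called, at 0.23 for CCND1, 0.72 for CCNE1 and 0.63 for CCNE2 (edgeR adjusted p = 0.30, 0.34 and 0.24). None of these had an unadjusted p under 0.05. RB1 in resting cells had 7.83 to 13.5 CPM in Alk-high and 7.65 to 17.6 CPM in other cells, so its ranges overlapped.

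**Figure D5:**
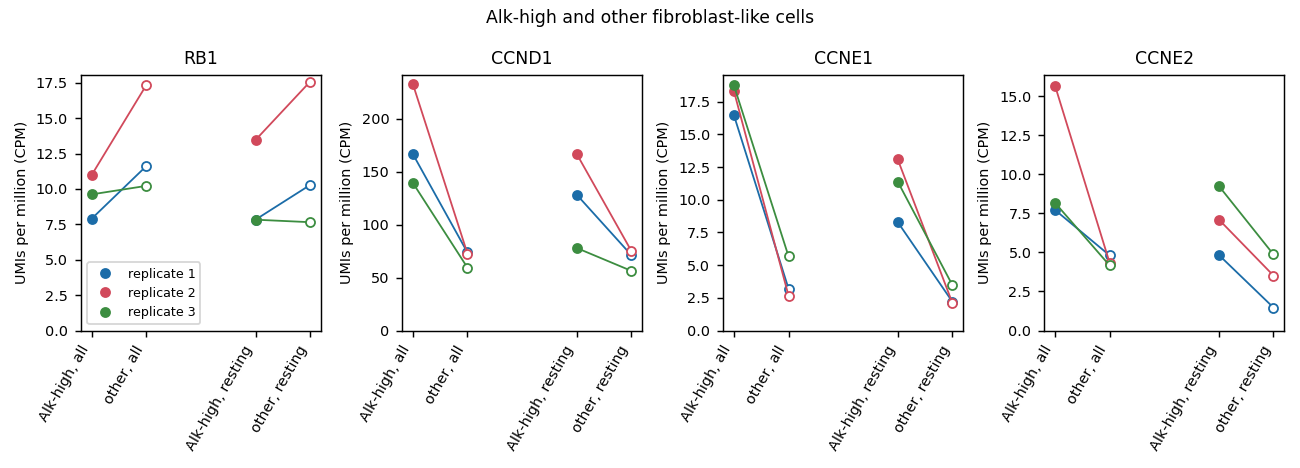
CPM of 4 members in Alk-high (filled) and other fibroblast-like cells (open), for all cells and for resting cells alone. Lines join the values of 1 animal. CCND1 and CCNE1 are higher in Alk-high cells of every animal in both sets, and RB1 is lower in every animal when all cells are taken.

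Of the other RB pathway genes, 8 were higher and 4 lower in Alk-high cells, with a median log2 fold change of 0.45 beside −0.01 for all genes. CDK6 (2.15) and CCND3 (1.88), a kinase and a cyclin of the D-type complexes, were higher, as was CDKN2B (4.20), an inhibitor of CDK4 and CDK6 named after its value was seen. E2F3 (1.59) and E2F8 (2.19) were also higher. CDKN1A (−1.96), the pocket protein RBL2 (−1.15), CDKN1B (−1.09), which encodes the inhibitor p27, and CCND2 (−0.65) were lower. These values are from all cells of 2 clusters that differ in depth and in cycling. In resting cells alone E2F3 averaged 7.32 CPM in Alk-high and 1.92 CPM in other cells. E2F8 averaged 0.752 and 0.232 CPM there, on 8 UMIs and 1 UMI, against 4.85 and 1.02 CPM in all cells. Pathway values after matching on UMI total are not given here.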

How the data were processed

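The samples are 3 single-cell libraries, each from the lung tumours of another naked mole-rat. The authors deposited raw UMI counts per gene and barcode. Cell Ranger 7.1.0 made them per the file headers, but version 8.0.0 stands in the submitters' processing notes. The build is not given in the sources used here.

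Cells with at least 1000 UMIs, 500 genes and under 20% mitochondrial counts were kept (25044). Scrublet's automatic threshold marked 1 doublet and so had not worked, so a score limit of 0.2 was set by hand, which took out 445 cells. Any pair of libraries had 21 to 31 barcodes in common, and 0 of them had the same UMI total in both. Cells were scaled to 10000 counts and clustered with scanpy 1.11.5 (2000 variable genes, 30 components, 20 neighbours, Leiden resolution 1). A cluster was named from at least 3 markers in at least 10% of its cells, with a mean log2 level at least 1 above the median cluster, and stayed unnamed where another class rivalled it.

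Counts were summed per animal and class and compared in edgeR 4.0.16 (TMM scaling, filterByExpr, quasi-likelihood test, Benjamini-Hochberg adjustment over all genes, threshold 0.05), with the animal as block because both classes came from it. DESeq2 1.42.0 was an alternative. The test was checked on simulated data. Each lineage was set against the mean of the others. Intervals are exact at 95%. Members were named whatever their values, but the scarce E2F1 and E2F2 not in every comparison. Pathway genes were named by size among those called, up to 8 in each direction, besides the RBL, E2F, CCND, CDK4, CDK6 and CDKN1 genes, and likeness by the 3 highest correlations among genes averaging at least 5 CPM. The members, the lists and the Alk threshold of 5 CPM were chosen with earlier results of these data known.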

Additional observations from a re-analysis of the deposited data

Results flagged for a closer look

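Cycling effects that differed between lineages by the test of the difference itself were found for 4 of 12 values, over 3 pairs of classes and 4 members. For CCND1 the log2 effect in fibroblast-like cells exceeded that in macrophage-like cells by 1.62, with cycling CCND1 higher in 3 of 3 animals in fibroblast-like cells and lower in 3 of 3 in macrophage-like cells. For CCNE1 the effect in T or NK-like cells exceeded that in macrophage-like cells by 1.91, and the effect in fibroblast-like cells differed from that in T or NK-like cells by −1.46. For CCNE2 the last pair differed by −1.84. With cells matched on cluster none of these 4 was called, and the lower CCND1 call in macrophage-like cells was lost without each replicate in turn. Of the 292 cycling macrophage-like cells, 199 were in cluster 4. CCND1 pooled over animals stood there at 13.0 CPM, against 20.7, 58.0 and 4.13 CPM in macrophage-like clusters 2, 11 and 12. The part of this makeup in the CCND1 difference was not tested. Median UMIs per cell were 24690 to 27747 in cycling and 6818 to 9385 in resting fibroblast-like cells, against 8724 to 10025 and 2420 to 2864 in T or NK-like cells, and 18800 to 20578 and 6066 to 8511 in macrophage-like cells. The part of these depths in the differences was not tested.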

How the results depend on the processing

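Of 589 alternative values of single members, 503 kept their direction and their side of the threshold, 76 kept the direction and lost the call, 6 gained a call and 4 changed direction. That tally leaves out values within lineages, across lineages and between lineages that were not called at first, of which 24 of 468 gained a call, 8 of them with library totals and 2 with DESeq2. The 4 were CCND1 in cycling cells matched on UMI total (−0.023), RB1 (−1.08) and CCNE2 (−0.60) in plasma-like cells with library totals, and CCND1 in S-led cells without replicate 3 (−0.053, in a leave-one-out range of −0.053 to 0.257). Without the replicate block, which pairs classes of the same animal, the members called were 1 of 3 in cycling cells, 1 of 4 differences and 0 of 2 in S-led cells. All genes called then numbered 449 of 3067 in cycling cells, 5770 of 12826 within lineages, 211 of 2356 differences, 138 of 1388 in S-led and 3124 of 4701 in Alk-high cells. DESeq2 called 1753 genes in cycling cells, and 717 genes and 1 member in S-led cells. Leaving out each replicate in turn gave 3 to 4 members and 1962 to 2671 genes in cycling cells, 7 to 9 members and 7920 to 10014 genes within lineages, 2 member differences each time and 616 to 1586 genes with one, 11 to 20 members (18 with all animals) and 32870 to 45971 genes (49570 with all) across lineages, 1 to 2 members and 526 to 1469 genes in S-led cells, and 2 to 3 members and 2963 to 4581 genes in Alk-high cells. A mitochondrial limit of 10% left 2 differences and 1 member in S-led cells. Thinning to 3000 UMIs left 1 difference, 1161 genes with a difference and 0 members in S-led cells, with 2823 genes there. Matching on cluster left 4081 genes within lineages, 0 member differences and 84 genes with one. In Alk-high cells matching on UMI total left 0 members and 2318 genes, and resting cells alone 2912 genes. The share of cycling cells at 3000 UMIs was 31.9% in T or NK-like, 13.4% in dendritic-like, 9.62% in fibroblast-like, 9.27% in macrophage-like and 10.7% in plasma-like cells. With the S list it was 18.4%, 15.9%, 10.2% and 10.2% in the first 4 of these. With at least 2 UMIs it was 13.1% in dendritic-like, 9.38% in fibroblast-like and 7.97% in macrophage-like cells, and with at least 5 UMIs 5.03% in fibroblast-like cells. The cause was not tested for any of these. Settings that match on cluster within lineage or on lineage class, use library totals, or take resting or non-bone-matrix cells were chosen after seeing the data. Depth limits E2F1 and E2F2, with 105 and 48 UMIs in all.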

Other observations

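Clusters outside the compared classes also held the members. Cluster 6, unnamed and led by MMP7, SERPINB2 and HPGDS, had 18.4% cycling cells, the second highest share of the 27 clusters. Its CCNE1 stood at 16.1, 25.9 and 24.6 CPM in replicates 1, 2 and 3, and its CCND1 at 8.06, 18.4 and 7.27 CPM. Cluster 19, unnamed and led by SERPINE2, ELAVL2 and PTPRQ, had the highest Alk level, at 63.6 CPM, and 199 of its 202 cells came from replicate 2. In that animal it had 11.3 CPM of RB1, 15.6 CPM of CCND1 and 19.1 CPM of CCNE2, so its CCND1 was below the 233 CPM of Alk-high fibroblast-like cells of the same animal. An epithelial-like cluster led by SCGB3A2 also had Alk, at 15.5 CPM.

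Osteoclast-like cells, 191 of 201 of them from replicate 2, had 108 CPM of CCND1 and 16.9 CPM of CCNE2 in that animal. Among endothelial-like cells, the cluster led by MMRN1 and STAB1, genes known from lymphatic endothelium, had 224, 228 and 469 CPM of CCND1 in 25, 16 and 19 cells. These clusters were described after their values were seen, and those from 1 animal may be that library and not a type.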
